A study of Homo sapiens with 4 samples.

Results

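The genes described here are 45 genes of the lysosome, chosen by name from a fixed list and all 45 found among the 51103 genes of the count tables. They encode soluble hydrolases and their partners, lysosomal membrane proteins, subunits of the proton pump and the MiT/TFE transcription factors. By their labels, the samples were AGS cells, an established human gastric adenocarcinoma cell line, whose polyadenylated RNA was sequenced. Cells of the FGF2 group were kept for 24 h with 20 ng/mL recombinant fibroblast growth factor 2. The comparison group carries the abbreviation NC without an explanation, and FGF2 appears in its treatment text too, so the treatment of the NC cells is unclear. Each group has 2 libraries, with 13790335 and 27598608 counts for FGF2 and 14073340 and 27325697 counts for NC. Library 1 exceeded library 2 at 2 genes of 22043 in the FGF2 group and at 2 of 22485 in the NC group, where 1158 and 1221 genes would be so for separate libraries of these depths. The libraries of a group therefore share reads and were counted as 1 sample, so the comparison is of 1 sample against 1, with no replicate error and no test.

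The lysosome is the acidic compartment in which cells break down proteins, glycans, glycosaminoglycans and lipids. Its hydrolases are made in the endoplasmic reticulum, tagged with mannose 6-phosphate and delivered by receptors, and a V-type proton ATPase keeps the compartment acidic. TFEB, TFE3 and MITF bind E-box sequences near the start sites of many lysosomal genes, and the kinase complex mTORC1 holds these factors in the cytoplasm in fed cells.

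Most of the lysosomal genes were not called, and those that were called stood mainly lower in the FGF2 sample. The reads of each group form 2 disjoint sets, namely library 1 and the part of library 2 that is not in library 1. To be called, a gene had to differ by 1.2-fold or more, in the same direction, in each of the pairings of an FGF2 set with an NC set. Only genes averaging 50 or more counts over the sets were tested. Of the 44 members above that minimum, 11 were lower, 1 was higher and 32 were neither. Over all 11000 genes above the minimum the same rule called 13.4% lower and 12.7% higher, and over protein-coding genes alone 13.2% and 12.8%. The share of members called lower, 25%, lay above this background, and the 2.27% called higher lay below it. The median log2 fold change was -0.15 over the members (a ratio of 0.90) and 0.03 over all tested genes. Values below 0 were found for 31 of the 44 members (70.5%) and for 46.1% of all tested genes. With no scaling beyond the total count, 15 members were lower and 1 higher, against 17.6% and 8.47% of all tested genes. At a bound of 1.5-fold, 2 members were lower (IDUA and ARSA, 4.55% of the 44) and 0 higher, against 5.17% and 3.14% of all tested genes, so at this bound the share of lower members did not exceed the background.

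**Figure D1:**
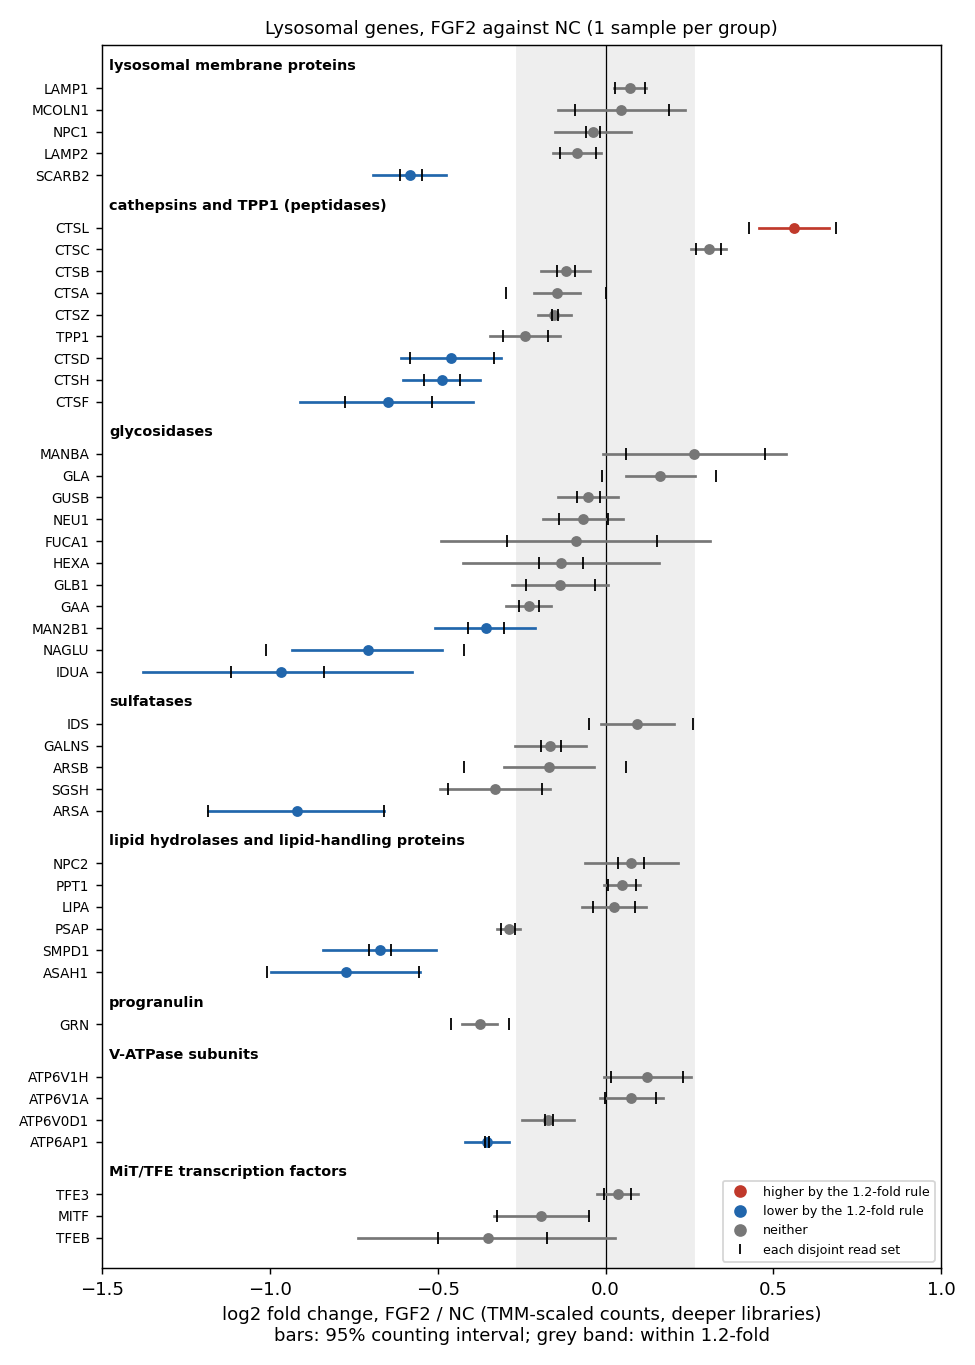
Log2 fold change (FGF2 over NC, deeper libraries, scaled by TMM) of the 44 tested members by role, with bars for the 95% counting interval and ticks for each disjoint read set. The 11 genes called lower range from IDUA at -0.97 to ATP6AP1 at -0.35, and CTSL at 0.56 is the single gene called higher.

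Fold changes below are log2 ratios of scaled counts of the deeper libraries, followed by their 95% Clopper-Pearson interval, which covers counting error only. Levels are in FPKM, the deposited values scaled for exon length and library depth, with library 1 before library 2 and the FGF2 group before the NC group. FPKM values lack the TMM scaling of the fold changes, so a gene near 0 can have opposite signs in the 2 measures. With total counts alone, PPT1 stood at -0.04, TFE3 at -0.05 and LAMP1 at -0.01, against 0.05, 0.04 and 0.07 with TMM. The direction of such genes is therefore not settled. In bulk RNA, fewer cells of a type and less RNA per cell cannot be told apart.

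Sequences near the start sites are shown first for the members that hold the palindrome TCACGTGA, the form of E-box best known from lysosomal genes. RefSeq start-site windows (GRCh38.p14, 250 bases before to 50 bases from the start) were found for 34 of the 45 members, with 44 windows in all. ARSA, ASAH1, ATP6V1A, ATP6V1H, CTSB, HEXA, LAMP2, MANBA, NAGLU, PSAP and SGSH had no entry. Searched on both strands, TCACGTGA was present for 7 of the 34 members (20.6%) and in 0.98% of all 35116 windows. The first share counts a member if any of its windows matched, and the second counts single windows, so the units differ. A member with several windows had more chances to match. The 7 were LAMP1, MCOLN1, GAA, GALNS, CTSA, ATP6V0D1 and CLN3. The 200 bases before the start and the first 10 from it follow for the first 6 of these, 5′ to 3′ on the strand of the gene, with CACGTG in capitals.
LAMP1 (chr13:113297039-113297248, plus strand): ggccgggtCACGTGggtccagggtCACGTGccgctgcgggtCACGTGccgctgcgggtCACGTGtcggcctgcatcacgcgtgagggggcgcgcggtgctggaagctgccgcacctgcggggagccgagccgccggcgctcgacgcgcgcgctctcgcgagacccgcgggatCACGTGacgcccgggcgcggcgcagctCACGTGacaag
MCOLN1 (chr19:7522424-7522633, plus strand): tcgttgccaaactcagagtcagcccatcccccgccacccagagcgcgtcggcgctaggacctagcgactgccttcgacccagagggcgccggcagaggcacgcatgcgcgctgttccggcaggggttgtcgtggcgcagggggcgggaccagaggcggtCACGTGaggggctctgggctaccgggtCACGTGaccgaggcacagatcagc
GAA (chr17:80101381-80101590, plus strand): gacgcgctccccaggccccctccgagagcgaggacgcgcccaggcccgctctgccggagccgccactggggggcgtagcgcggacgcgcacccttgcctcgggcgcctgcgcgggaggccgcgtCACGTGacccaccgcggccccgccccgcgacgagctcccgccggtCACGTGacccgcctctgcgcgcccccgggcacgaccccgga
GALNS (chr16:88856938-88857147, minus strand): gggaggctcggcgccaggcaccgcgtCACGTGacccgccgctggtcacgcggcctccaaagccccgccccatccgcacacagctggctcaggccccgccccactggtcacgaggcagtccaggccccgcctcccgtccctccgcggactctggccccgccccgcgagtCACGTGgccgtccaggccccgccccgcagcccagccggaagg
CTSA (chr20:45891135-45891344, plus strand): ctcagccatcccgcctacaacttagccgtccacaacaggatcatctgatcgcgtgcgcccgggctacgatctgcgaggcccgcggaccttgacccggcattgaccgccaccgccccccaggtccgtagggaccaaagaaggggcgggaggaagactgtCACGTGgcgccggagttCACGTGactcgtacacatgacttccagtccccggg
ATP6V0D1 (chr16:67481148-67481357, minus strand): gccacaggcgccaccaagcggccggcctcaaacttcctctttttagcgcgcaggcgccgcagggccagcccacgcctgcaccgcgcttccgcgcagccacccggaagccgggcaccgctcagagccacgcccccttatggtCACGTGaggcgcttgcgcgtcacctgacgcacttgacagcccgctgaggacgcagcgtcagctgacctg

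The LAMP1 window held 6 copies of CACGTG, of which the 2 nearest to the start lay within TCACGTGA. In GAA the copies began 76 and 31 bases before the start, in MCOLN1 41 and 14 bases, and in ATP6V0D1 the single copy 59 bases. Of the 6 members of this kind that could be tested, 0 were called, with log2 fold changes from -0.23 (GAA) to 0.07 (LAMP1). The shorter motifs TCACGTG and CACGTG are contained in TCACGTGA. Each was present for the same 11 of 34 members (32.4%), and in 3.71% and 7.26% of all windows, again members against single windows. The 4 further members were ARSB, NEU1, CTSD and CTSF. Of the 10 of these 11 that were tested, CTSD and CTSF were called lower, and 8 were neither. Of the 23 tested members without CACGTG in the window, 6 were lower and 1 was higher. These matches are letters only, and binding was not measured. The same stretch follows for CTSF and CTSD, lower with CACGTG, for SMPD1 and SCARB2, lower without it, and for CTSL, higher without it.
CTSF (chr11:66568597-66568806, minus strand): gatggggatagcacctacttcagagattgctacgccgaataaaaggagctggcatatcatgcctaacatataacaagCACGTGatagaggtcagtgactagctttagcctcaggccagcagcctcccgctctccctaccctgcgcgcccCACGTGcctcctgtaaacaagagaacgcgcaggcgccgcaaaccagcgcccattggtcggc
CTSD (chr11:1763918-1764127, minus strand): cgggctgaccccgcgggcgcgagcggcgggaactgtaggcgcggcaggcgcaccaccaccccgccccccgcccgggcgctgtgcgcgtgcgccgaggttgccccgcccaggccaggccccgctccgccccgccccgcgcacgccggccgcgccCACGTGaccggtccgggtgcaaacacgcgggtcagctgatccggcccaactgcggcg
SMPD1 (chr11:6390274-6390483, plus strand): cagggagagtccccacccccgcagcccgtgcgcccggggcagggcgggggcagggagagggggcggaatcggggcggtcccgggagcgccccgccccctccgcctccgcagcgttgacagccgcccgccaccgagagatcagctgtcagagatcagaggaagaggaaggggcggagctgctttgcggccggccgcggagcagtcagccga
SCARB2 (chr4:76213815-76214024, minus strand): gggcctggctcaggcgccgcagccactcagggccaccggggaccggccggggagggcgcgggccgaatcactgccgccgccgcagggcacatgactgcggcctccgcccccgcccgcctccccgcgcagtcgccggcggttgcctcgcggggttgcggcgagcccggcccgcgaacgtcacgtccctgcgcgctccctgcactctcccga
CTSL (chr9:87725919-87726128, plus strand): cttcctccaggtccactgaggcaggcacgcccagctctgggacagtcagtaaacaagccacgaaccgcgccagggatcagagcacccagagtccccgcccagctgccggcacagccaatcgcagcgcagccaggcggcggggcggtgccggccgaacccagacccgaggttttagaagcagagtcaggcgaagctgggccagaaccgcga

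Among the transcription factors, TFE3 was the most abundant by FPKM and was level between the groups. TFE3 stood at 36.9 and 36.4 FPKM in the FGF2 libraries and 37.4 and 37.7 FPKM in the NC libraries (0.04, -0.02 to 0.10). MITF stood at 3.71 and 3.85 FPKM against 4.96 and 4.67 FPKM (-0.19, -0.33 to -0.05) and was not called. TFEB stood at 0.603 and 0.654 FPKM against 0.730 and 0.888 FPKM. Its log2 fold change of -0.35 (-0.74 to 0.03) rested on 102 and 137 counts, so no difference was detectable at this depth. The FPKM values of MITF and TFEB did not overlap between the groups, but the scaled read sets of TFEB did, and both genes fell short of the 1.2-fold rule. Genes that hold these factors at the lysosome or release them (mTORC1, its activator RHEB, RAG GTPases, Ragulator, FLCN and its partners) were mostly not called. Of 18 tested, 1 was higher (5.56%) and 0 were lower (median 0.01, range -0.31 to 0.54). Over all tested genes the rule called 12.7% higher and 13.4% lower, so neither share exceeded the background. The higher gene was PPP3CB, a catalytic subunit of calcineurin, the phosphatase that acts on TFEB, at 0.40 (0.30 to 0.50).

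None of the 5 most abundant members, PSAP, CTSZ, GRN, LAMP1 and PPT1, was called. PSAP, the precursor of the saposins that present lipids to hydrolases, stood at 134.2 and 138.6 FPKM against 172.7 and 179.8 FPKM (-0.29, -0.32 to -0.25). The groups did not overlap, but the nearest read sets differed by only -0.20 on the log2 scale, short of the bound of 0.26 in either direction. CTSZ, a carboxypeptidase of the cathepsin family, stood at 110.8 and 110.1 FPKM against 132.1 and 129.9 FPKM (-0.15, -0.20 to -0.10). GRN, which encodes progranulin, a secreted and lysosomal precursor of granulins, stood at 48.5 and 50.1 FPKM against 63.3 and 69.0 FPKM (-0.38, -0.43 to -0.32). It also fell short of the rule, with a nearest gap of -0.22 on the log2 scale. PPT1, a thioesterase that removes palmitate from proteins, stood at 39.3 and 40.3 FPKM against 41.8 and 41.4 FPKM, a log2 fold change of 0.05. For PPT1, 23.4% of the exon sequence overlaps the opposite strand's genes, and the library kit does not mark strand, so its count is uncertain. In all, 10 of the 45 members overlap other genes over 10% or more of their exons. Of these 10, CLN3 was below the count minimum and 4 were called lower. The rule called 25% of all tested members and 13.4% of all tested genes lower. The summed FPKM of all 45 members was 753.8 and 757.4 in the FGF2 libraries and 868.2 and 884.2 in the NC libraries, without TMM scaling. PSAP and CTSZ made up 32.8% of that sum in FGF2 library 2 and 35.0% in NC library 2.

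Of the 5 lysosomal membrane protein genes tested, 1 was lower and 0 were higher. LAMP1, the main glycoprotein of the lysosomal membrane, stood at 44.5 and 42.7 FPKM against 43.8 and 43.1 FPKM (0.07, 0.02 to 0.12), and the groups overlapped. LAMP2, its paralog and a receptor of chaperone-mediated autophagy, stood at 19.6 and 19.8 FPKM against 23.0 and 22.3 FPKM (-0.08, -0.16 to -0.01). SCARB2, which encodes the lysosomal membrane protein LIMP-2, was lower at 2.19 and 2.16 FPKM against 3.58 and 3.43 FPKM. Its log2 fold change was -0.58 (-0.69 to -0.48), and each read set gave nearly the same value, -0.61 and -0.55. The cholesterol exporter gene NPC1 stood at -0.04 (-0.15 to 0.08) and MCOLN1, which encodes a calcium channel of the lysosome, at 0.05 (-0.14 to 0.24). CLN3, a membrane protein mutated in a childhood lipofuscinosis, held only 6 and 9 counts against 4 and 11 counts, and was below the minimum. Exons of a same-strand neighbour cover 25.2% of CLN3, and the sources used here do not say how reads on shared exons were counted.

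The peptidases held members that moved in opposite directions. Of 9 tested, 3 were lower, 1 was higher and 5 were neither. CTSL, a cysteine endopeptidase (ENSG00000135047, GRCh38 chromosome 9, 87725519 to 87731393), was higher. It stood at 30.3 and 28.2 FPKM in the FGF2 libraries and 20.1 and 20.3 FPKM in the NC libraries. Its log2 fold change was 0.56 (0.46 to 0.66), with 0.69 and 0.43 from the read sets. CTSL has pseudogene copies, so reads may be split among them. CTSC, the dipeptidyl peptidase that activates granule serine proteases, stood just outside the rule at 0.31 (0.26 to 0.36), with 19.5 and 20.3 FPKM against 17.3 and 17.4 FPKM. CTSF, a cysteine peptidase, was lower at 2.58 and 2.54 FPKM against 3.95 and 4.23 FPKM (-0.65, -0.91 to -0.39). CTSH, an aminopeptidase, was lower at 6.39 and 6.35 FPKM against 9.23 and 9.45 FPKM (-0.49, -0.60 to -0.37). CTSD, the main aspartic peptidase of the lysosome, was lower at 7.21 and 7.26 FPKM against 9.71 and 10.6 FPKM (-0.46, -0.61 to -0.31). Of the CTSD exons, 41.7% overlap other genes on the same strand and 15.8% on the opposite strand, so its value is uncertain. CTSA, CTSB and TPP1 lay between -0.24 and -0.12 and were not called.

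Glycosidases, which remove sugars from glycoproteins, glycolipids and glycosaminoglycans, had 3 of 11 lower and 0 higher. IDUA, the iduronidase of heparan and dermatan sulfate (ENSG00000127415, chromosome 4, 986997 to 1004506), had the lowest log2 fold change of the members, -0.97 (-1.38 to -0.58). It stood at 0.616 and 0.716 FPKM against 1.44 and 1.49 FPKM, from 79 and 163 counts in the deeper libraries. NAGLU, the N-acetylglucosaminidase of heparan sulfate, was lower at 2.73 and 3.18 FPKM against 5.89 and 5.53 FPKM (-0.71, -0.93 to -0.49), with -1.01 and -0.42 from the read sets. MAN2B1, an alpha-mannosidase, was lower at 4.22 and 4.33 FPKM against 6.00 and 5.89 FPKM (-0.36, -0.51 to -0.21). Exon overlap with other genes was 13.35% for IDUA (opposite strand), 12.6% for NAGLU and 21.2% for MAN2B1 (same strand). The other 8 ranged from -0.23 (GAA, the glycogen-degrading alpha-glucosidase) to 0.26 (MANBA, a beta-mannosidase). GLA, the alpha-galactosidase, gave 0.33 and -0.01 in the read sets, and GUSB, the glucuronidase, stood at -0.05 (-0.14 to 0.04).

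Among the sulfatases, 1 of 5 was lower and 0 were higher. ARSA, which removes sulfate from the myelin lipid sulfatide (ENSG00000100299, chromosome 22, 50622754 to 50628173), stood at 1.98 and 2.27 FPKM against 4.82 and 4.57 FPKM. Its log2 fold change was -0.92 (-1.18 to -0.66). SGSH, the N-sulfatase of heparan sulfate, stood at -0.33 (-0.49 to -0.16), with -0.19 and -0.47 from the read sets, and was not called. ARSB (-0.17), GALNS (-0.16) and IDS (0.09), which act on dermatan, keratan and heparan sulfates, were not called either.

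Of the 6 genes of lipid hydrolases and lipid-handling proteins, 2 were lower and 0 higher. SMPD1, acid sphingomyelinase (ENSG00000166311, chromosome 11, 6390431 to 6394998), stood at 5.88 and 6.13 FPKM against 9.79 and 10.4 FPKM. Its log2 fold change was -0.67 (-0.84 to -0.50), with -0.64 and -0.70 from the read sets. ASAH1, acid ceramidase, which acts on the product of SMPD1, stood at 0.693 and 0.617 FPKM against 1.09 and 1.12 FPKM (-0.77, -0.998 to -0.553). Neither gene's groups overlapped, which the rule requires of any called gene. The acid lipase gene LIPA stood at 0.02 (-0.07 to 0.12) and NPC2, the soluble cholesterol carrier that hands its load to NPC1, at 0.08 (-0.06 to 0.22).

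Of the 4 proton pump genes among the members, 1 was lower and 0 were higher. ATP6AP1, an accessory subunit of the membrane sector, was lower at 23.3 and 24.1 FPKM against 31.7 and 32.7 FPKM (-0.35, -0.42 to -0.29), just inside the rule. ATP6V0D1 of the membrane sector stood at -0.17 (-0.25 to -0.09), and ATP6V1A and ATP6V1H of the catalytic sector at 0.08 (-0.02 to 0.17) and 0.12 (-0.01 to 0.26). Of 15 other V-ATPase subunit genes tested, 0 were higher and 0 lower, with a median of -0.04 and a range of -0.41 to 0.30.

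**Figure D2:**
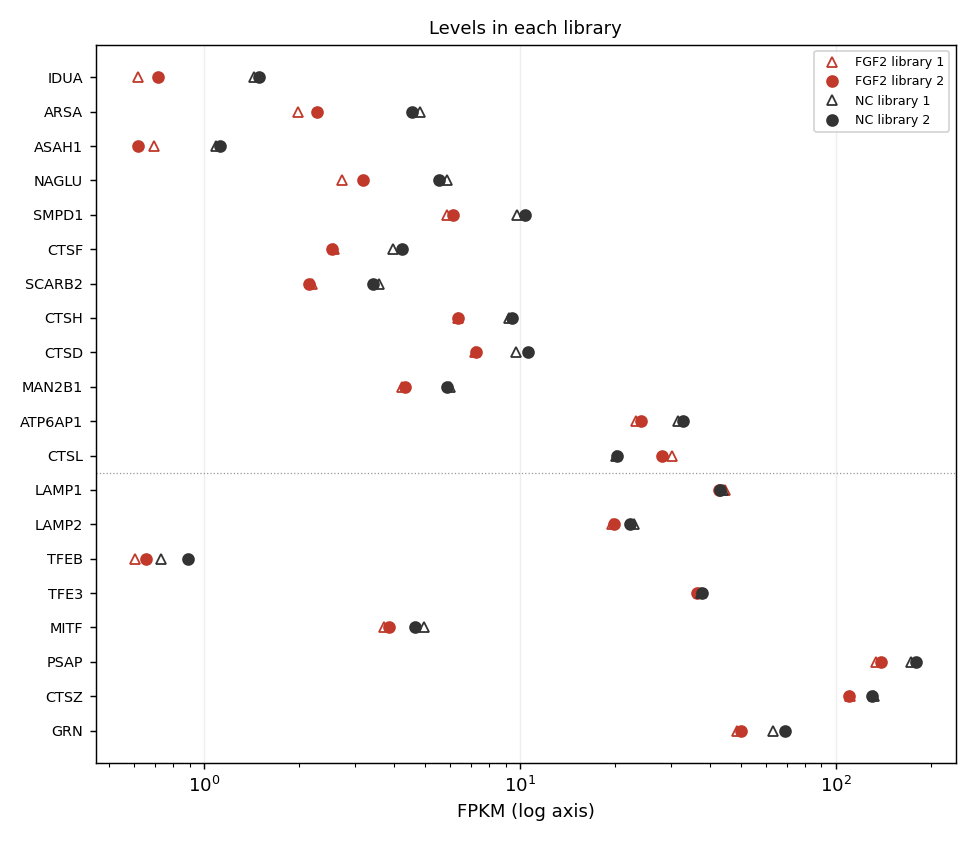
FPKM on a log axis in each of the 4 libraries for the 12 called members (above the dotted line) and 8 others. The FGF2 and NC libraries stand apart for the called members, which the rule required of them. For LAMP1 and TFE3 the libraries lie on top of each other near 43.1 and 37.7 FPKM.

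Other lysosomal genes were described by the same rule, from lists of the same compartment. Of 28 other hydrolases and cofactors tested, 9 were lower and 0 higher, a share of 32.1% against 13.4% of all tested genes, with a median of -0.27. The heparan sulfate endoglucuronidase gene HPSE (-1.27, -1.502 to -1.039), the nuclease gene DNASE2 (-0.95, -1.19 to -0.71), the glycoasparaginase gene AGA (-0.70, -1.11 to -0.31) and the mannosidase gene MAN2B2 (-0.69, -0.84 to -0.55) had the lowest values. Of 24 other membrane proteins, 4 were lower and 0 higher, with a median of -0.10. They were HGSNAT, the acetyltransferase of heparan sulfate breakdown (-1.45, -1.63 to -1.27), LMBRD1 (-0.58), TMEM106B (-0.53) and SIDT2 (-0.44). Sorting to the lysosome had 1 gene higher and 2 lower of 15 (median 0.01). The sorting receptor gene SORT1 was lower at -0.51 (-0.58 to -0.45) and the retromer gene VPS29 at -0.38 (-0.50 to -0.26). M6PR, the cation-dependent mannose 6-phosphate receptor, was higher at 0.32 (0.26 to 0.39), although 29.3% of its exon sequence is shared with the opposite strand. A division of the members made after their values were seen gave 9 of 29 hydrolases lower (31.0%) and 1 higher. Of 15 other members, 2 were lower (13.3%) and 0 higher, a lower share near the 13.4% of all tested genes. The difference between hydrolases and other members was not tested.

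**Figure D3:**
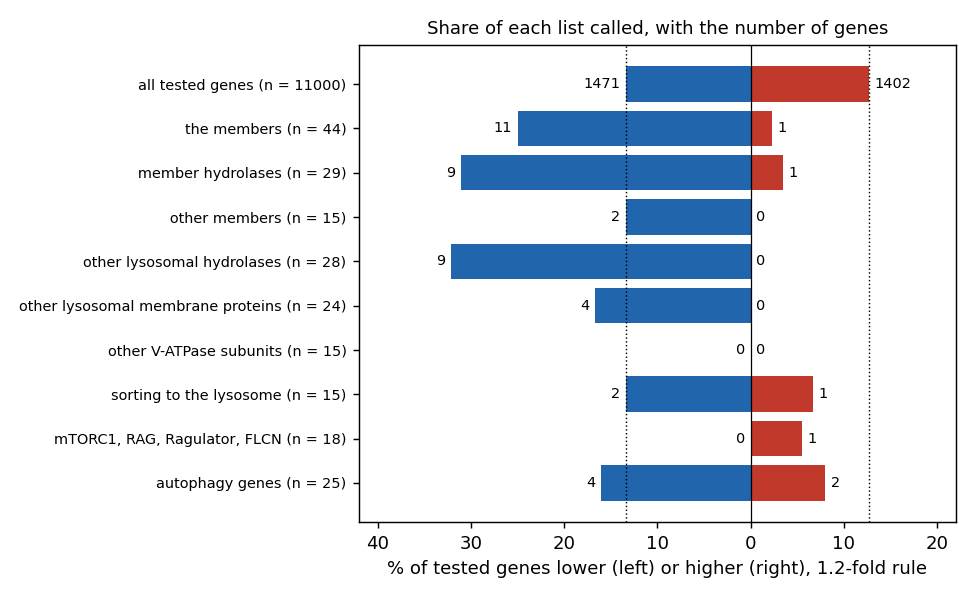
Share of tested genes lower (left) or higher (right) by the 1.2-fold rule in each list plotted, with the number of genes at each bar and the shares over all 11000 genes as dotted lines. The bars of the member hydrolases (9 of 29) and of the other hydrolases (9 of 28) reach farthest to the left among the lists plotted, and that of the other V-ATPase subunits is empty. The members were divided into hydrolases and others after their values were seen.

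Arranged along breakdown pathways, an order set after the values were seen, the lower genes stood at some steps and not at others. Heparan sulfate, the glycosaminoglycan that also serves as a co-receptor of FGF2 at the cell surface, is cut by HPSE and then taken apart sugar by sugar by lysosomal enzymes. Of 7 genes of this pathway with enough counts, 4 were lower (HPSE, IDUA, HGSNAT and NAGLU) and 3 were neither (IDS, SGSH and GUSB). HGSNAT and NAGLU act in succession and had 351 against 1006 and 264 against 454 counts. Of 9 tested genes of sphingolipid breakdown, 3 were lower, namely ARSA, SMPD1 and ASAH1. Of the genes of the ganglioside steps, GLB1, NEU1, HEXA and GM2A lay between -0.35 and -0.07 and were not called.

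**Figure D4:**
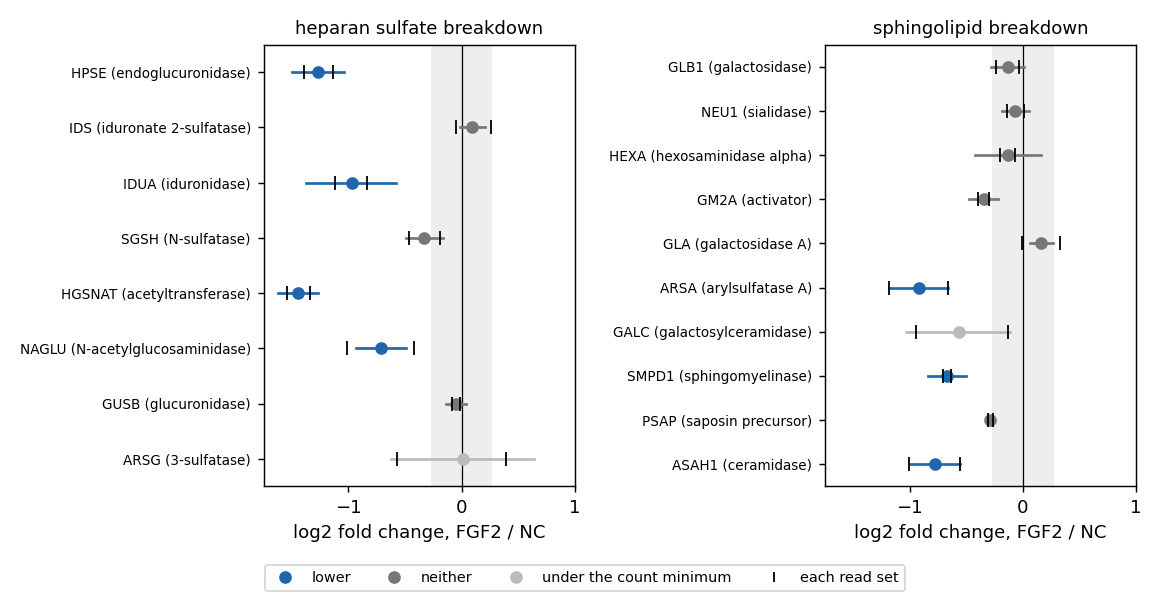
Log2 fold change (FGF2 over NC) of genes of heparan sulfate and of sphingolipid breakdown, with 95% counting intervals as bars and the disjoint read sets as ticks. HPSE, IDUA, HGSNAT and NAGLU lie between -1.45 and -0.71, while IDS and GUSB lie near 0.

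Called members were found mostly at low levels. Of the 23 tested members under 10 FPKM in NC library 2, 8 were lower and 0 higher, and of the 21 members at or above it 3 were lower and 1 was higher. Over all genes the same levels had 16.1% lower (11.8% higher) and 9.51% lower (14.1% higher). Across the 44 members the log2 fold change and the mean log2 level had a Spearman rho of 0.32 and a Pearson r of 0.33, and across all tested genes of 0.23 and 0.19. These are descriptions over genes of the same libraries, and the NC level enters both quantities.

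The labelled cell type was compared with marker genes. Of 7 epithelial markers, 3 were tested, all of them keratins, and 1 was higher, 1 lower and 1 neither. In the deeper FGF2 and NC libraries KRT8 stood at 190.6 and 270.3 FPKM (lower, -0.42), KRT19 at 47.6 and 27.3 FPKM (higher, 0.89) and KRT18 at 199.1 and 193.0 FPKM (0.13). The other 4 were near absent, with EPCAM at 0.518 and 1.19 FPKM, CLDN4 at 0.462 and 0.654 FPKM, CLDN7 at 0.145 and 0.162 FPKM, and CDH1 at 4 and 20 counts. Most of the 7 epithelial markers therefore did not mark these samples, and whether the cells are as labelled was not tested. Of 8 fibroblast markers, 3 were tested, and 2 were lower and 1 neither. In the deeper FGF2 and NC libraries COL1A1 stood at 59.4 and 103.8 FPKM (lower, -0.72) and PDGFRB at 6.29 and 21.0 FPKM (lower, -1.65). THY1 stood at 18.0 and 18.9 FPKM (0.02). COL1A2 had 0 counts in every library. DCN and LUM had 0 counts in the FGF2 libraries, but also few in the NC libraries (3 and 8 for DCN, 8 and 12 for LUM). In the deeper FGF2 and NC libraries COL3A1 had 6 and 137 counts and PDGFRA 3 and 0. The summed FPKM of the 8 fibroblast markers was 84.3 and 83.8 in the FGF2 libraries and 141.4 and 144.6 in the NC libraries. Their part in the values of the lysosomal genes was not tested. Of 8 macrophage and blood markers none was above the count minimum, with summed FPKM of 0.399 to 0.940 in FGF2 and 1.17 to 1.32 in NC, and LYZ, CD163 and HLA-DRA had 0 counts in every library. The 5 endothelial markers were also all below the minimum, with summed FPKM between 0.288 and 0.361 in the 4 libraries, and KDR and TEK had 0 counts in every library.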

How the data were processed

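Polyadenylated RNA of 4 AGS libraries was analysed. The authors deposited raw read counts per gene and FPKM values. The submitters' processing notes name HISAT2, HTSeq 0.13.5 and GRCh38. No annotation release is stated in the sources used here. Libraries were made with NEBNext Ultra, per the labels' protocols, a kit that does not mark strand. All 51103 identifiers are in GENCODE v29, whose exon lengths equal those implied by count and FPKM for about 99.5% of genes with over 20 counts, and its GRCh38 coordinates are printed.

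Groups were taken from the titles. Since library 1 is contained in library 2 in both groups, no test was made and no p-values are given. Disjoint read sets (13790335 and 13808282 counts for FGF2, 14073340 and 13252368 for NC) were scaled by TMM in edgeR 4.0.16 over the 15030 genes kept by filterByExpr, and 11000 of these had a mean of at least 50 counts. Fold changes used libraries 2, with 0.5 added to each count. The rule compares all pairs of an FGF2 and an NC read set and was tested on simulated data. Those data held little variation beyond counting error, so they cannot show how often the rule calls genes between samples treated alike. Alternatives were DESeq2 1.42.0 size factors, total counts, log2(FPKM + 1), other bounds and single libraries.

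The members, lists, rule and count minimum were chosen with earlier results of these data known. All 45 members are accounted for. Some genes of the breakdown pathways are not reported here. Values in every library are given for LAMP1, LAMP2, the MiT/TFE factors, the called members and the 5 of highest FPKM, and from each other list at most 4 called genes with the largest change, plus genes that the text says were named after their values were seen or that stand in the breakdown pathways.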

Additional observations from a re-analysis of the deposited data

How the results depend on the processing

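No paired analysis was possible because each group is 1 sample and the comparison comes from no test. The 11 members called lower and CTSL, called higher, kept their direction under each alternative that changes fold changes. The rule had already required the same direction in every pairing of read sets. Alternatives built from the same reads therefore had little room to reverse a called gene, so the kept direction is no separate check. Leaving out a library 1 does not change fold changes, since they use libraries 2. All 12 were called again with DESeq2 size factors, with total counts and with 5 added to each count. They were also called with no count minimum beyond the low-count filter and with a library left out. Those settings had little or no room to remove a call, so they are no separate check. The count minimum does not enter a member's call, and a left-out library leaves fewer or pooled sets of the same reads to pass. Of the 32 other tested members, 13 changed sign under at least 1 alternative. The rule made no such requirement of these members, so their contrast with the called ones is built in. At a bound of 1.5-fold, 2 members were lower and 0 higher. With the reads of library 2 that are not in library 1 alone, 17 were lower and 3 higher, against 22.9% of all tested genes in each direction, because fewer read sets had to pass. Leaving out 1 library, or library 1 or library 2 of both groups, gave 11 to 16 lower, 1 to 3 higher (CTSL, joined by CTSC without FGF2 library 1, NC library 1 or NC library 2, by CTSC and GLA without both libraries 2, and by CTSC and MANBA without both libraries 1) and medians of -0.17 to -0.14. Over all tested genes these settings called 16.5% to 21.7% lower and 16.3% to 22.6% higher, so the background rose as well. The median was -0.24 with total counts and -0.20 for log2(FPKM + 1), where the median of all tested genes was -0.06 and -0.05. Without the 9 tested members whose exons overlap other genes over 10% or more of their length, an alternative chosen after seeing the data, 7 of 35 were lower and 1 was higher, against 14.0% and 13.1% of all such genes. TFEB, FUCA1 and IDUA rest on few counts, and CLN3 is too low to compare.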

Other observations

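Autophagy genes, whose products deliver cargo to the lysosome, did not move as a group. Of 25 tested, 4 were lower and 2 higher, a share of 16% and 8% against 13.4% and 12.7% of all tested genes, with a median of 0.03. GABARAPL1, a ubiquitin-like protein of the autophagosome membrane, stood far from the rest at 4.61 FPKM against 17.1 FPKM in the deeper libraries, with 520 and 1913 counts and a log2 fold change of -1.81 (-1.95 to -1.67). Its read sets gave -1.85 and -1.76. ULK1, the kinase that starts autophagosome formation, was lower at -0.73 (-0.85 to -0.61), the fusion factor gene VPS39 at -0.48 (-0.57 to -0.38) and the cargo receptor gene SQSTM1 at -0.45 (-0.50 to -0.41). Of the SQSTM1 exons, 22% overlap the opposite strand's genes. The 2 higher genes, named after their values were seen, were ATG12 at 0.34 (0.23 to 0.46) and the late endosome GTPase gene RAB7A at 0.32 (0.27 to 0.36).

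LAMP3, a relative of LAMP1 and LAMP2 known as interferon-inducible, was below the count minimum and was singled out after its values were seen. Its counts were 23 and 49 with FGF2 and 79 and 150 in NC, a log2 fold change of -1.53 (-2.04 to -1.07), whereas LAMP1 and LAMP2 stood at 0.07 and -0.08. CTSV, a close relative of CTSL with which it may share reads, was also singled out after its values were seen. Unlike CTSL it was lower at 2.44 FPKM against 3.96 FPKM in the deeper libraries (-0.61, -0.82 to -0.41).

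Some genes of these lists that are known to be widely expressed had almost no counts, and were picked out after their values were seen. ATP6V0C, a ring subunit of the proton pump, had 5 and 17 counts in the deeper FGF2 and NC libraries, SPNS1, a lysosomal lysophospholipid transporter, had 21 and 42, and GABARAP had 6 and 0. Exons of other genes on the same strand cover 72.1% of ATP6V0C, 55.4% of SPNS1 and 30.5% of GABARAP, as they cover 25.2% of CLN3. The part of this overlap in their low counts was not tested.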
